A study of Mus musculus with 13 samples.

Results

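Bulge and outer root sheath cells of the mouse abdomen were followed through pregnancy and the weeks after birth in 4 single-cell RNA libraries of whole epidermis, with 1 library for each state. A cell was taken as one of them when it held at least 1 UMI (unique molecular identifier, 1 counted RNA molecule) of Cd34, at least 1 of Postn, at least 3 of both together, under 3 of Krt79 and under 3 of Aspn, Nrtn and Pthlh summed. The rule found 2512 of the 36927 cells that held 200 or more genes and no more than 10% UMIs of mitochondrial genes (6.80%). The non-pregnant library (NP) gave 428 of them, the library of gestation day 16 (dpc16) 441, that of day 6 post partum (dpp6) 1043 and that of day 40 post partum (dpp40) 600. They are called bulge cells here. Because measured counts chose them, the levels of these 6 genes describe the choice and are not tested.

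All 4 libraries came from C57BL/6 mice of the genotype Tbx3creERT2; R26H2B EGFP. In these mice tamoxifen switches on a Cre recombinase made from the Tbx3 locus, which in turn starts an EGFP-tagged histone reporter at the Rosa26 locus. The NP mice received tamoxifen over 3 days, and the mice of the other 3 states received it during pregnancy, so that its timing and the state cannot be told apart. No library came from mice without the Cre allele, the reporter or tamoxifen, and the sources used here do not give the age of the mice or the number behind each library. Skin was dissociated with trypsin and cells were captured at random on the 10x Chromium 3′ v2 system.

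The bulge is the part of the hair follicle outer root sheath that holds the follicle's slowly dividing stem cells, and in the mouse its cells carry the surface glycoprotein CD34. Between hair cycles these cells are held at rest by BMP signals and by secreted Wnt inhibitors, and Wnt signals from and around the hair germ start new growth. In background work on mouse skin, prolactin signalling acts on the transcription factor Nfatc1 of bulge cells, and hair growth is slowed in late pregnancy and lactation.

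The libraries held between 40450455 and 74804602 UMIs, and the median cell kept held 4448 to 5638 UMIs and 1455 to 1675 genes. Bulge cells held a median of 3578.5 UMIs in NP, 4828 in dpc16, 3478 in dpp6 and 4336.5 in dpp40, and their summed UMIs came to 1958674, 2415362, 4467392 and 3239981. Between 0 and 2 bulge barcodes were shared by any pair of libraries, against 70 to 147 barcodes over all cells. Each state has a single library, so a difference between states has no replicate check. Folds between states carry 95% intervals in square brackets, which cover counting error only, and no p-value is given for a state. Values are given as counts per 1000000 UMIs (CPM) summed over the cells of a class in a library, always in the order NP, dpc16, dpp6 and dpp40.

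The label was checked against genes that the rule did not use. Sfrp1, a secreted Wnt inhibitor, and Ptn, the growth factor pleiotrophin, are markers named for these cells beside Cd34 and Postn, which encodes the matrix protein periostin. Sfrp1 stood at 388, 318, 442 and 401 CPM in bulge cells and Ptn at 1374, 1270.2, 2186 and 1627, against 35.4, 27.8, 36.3 and 28.3 and 142, 124, 145 and 102 CPM in interfollicular basal-like cells of the same libraries. In the mm10 assembly with GENCODE M21 models, Cd34 lies on chromosome 1 (194938819 to 194961279, plus strand), Postn on chromosome 3 (54361109 to 54391037, plus strand), Ptn on chromosome 6 (36714929 to 36810220, minus strand) and Sfrp1 on chromosome 8 (23411502 to 23449632, plus strand). Most of the cells were keratinocytes by Krt5 and Krt14, and 32, 13, 126 and 23 of them held under 10 UMIs of both together. Fibroblast collagens (Col1a1, Col1a2 and Col3a1) reached 3 UMIs in 2, 0, 7 and 1 bulge cells. The endothelial genes Pecam1 and Cdh5 reached 3 UMIs in none of the 2512 cells. Summed over bulge cells, 12 fibroblast markers came to 121, 108, 209.97 and 135 CPM, with 7, 7, 0 and 5 of them at 0 UMIs. This list holds Col6a1, which had 164 UMIs in 130 cells of NP and 190 in 136 cells of dpc16. The sum is thus no measure of fibroblast RNA alone, and the number at 0 also depends on depth. The 10 T cell markers came to 193, 223, 165 and 120.4 CPM, and the 12 Langerhans and myeloid markers to 823, 778, 903 and 513 CPM. Both lists hold genes spread over many bulge cells, such as Thy1 in 136 of 441 dpc16 cells and Epcam in 313 of 600 dpp40 cells. Only 4, 3, 7 and 3 bulge cells held 3 or more UMIs of Cd3d, Cd3e, Cd3g and Trdc summed. In Krt79-high cells, a class of upper follicle keratinocytes used below, those myeloid markers came to 679, 633, 1152 and 588 CPM, a level of the same order.

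Cells just outside and just inside the rule carried graded levels of its markers. Cells with exactly 2 UMIs of Cd34 and Postn, which the rule left out, numbered 62, 88, 76 and 58, and held Sfrp1 at 109, 67.5, 128 and 113 CPM. Cells with exactly 3 UMIs, which it took in, numbered 53, 56, 71 and 51, and held Sfrp1 at 221, 146, 249.9 and 205 CPM. At the far end, 106, 122, 400 and 250 members held 10 or more UMIs of the pair. Krt79 alone kept out 44, 33, 55 and 51 cells, and the Aspn, Nrtn and Pthlh sum alone kept out 143, 145, 460 and 177. A further 229, 259, 355 and 249 cells had 3 or more UMIs of Postn and none of Cd34.

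Bulge cells made up the smallest share of cells at dpc16 and the largest at dpp6. They were 428 of 6491 cells in NP (6.59%, exact binomial 95% interval 6.00% to 7.22%) and 441 of 12853 in dpc16 (3.43%, 3.12% to 3.76%). They were 1043 of 9031 cells in dpp6 (11.5%, 10.9% to 12.2%) and 600 of 8552 in dpp40 (7.02%, 6.48% to 7.58%). The intervals of NP and dpp40 overlap, while those of dpc16 and dpp6 lie apart from both and from each other. A rule on UMIs finds more cells where cells are deeper, so every cell was also thinned to 2000 UMIs, with none left out. The shares were then 4.41%, 1.83%, 9.58% and 4.34%, in which NP now lies slightly above dpp40 and dpc16 and dpp6 again lie lowest and highest. These shares are of captured cells, so how many follicle cells dissociation released and how many the skin held cannot be told apart.

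**Figure D1:**
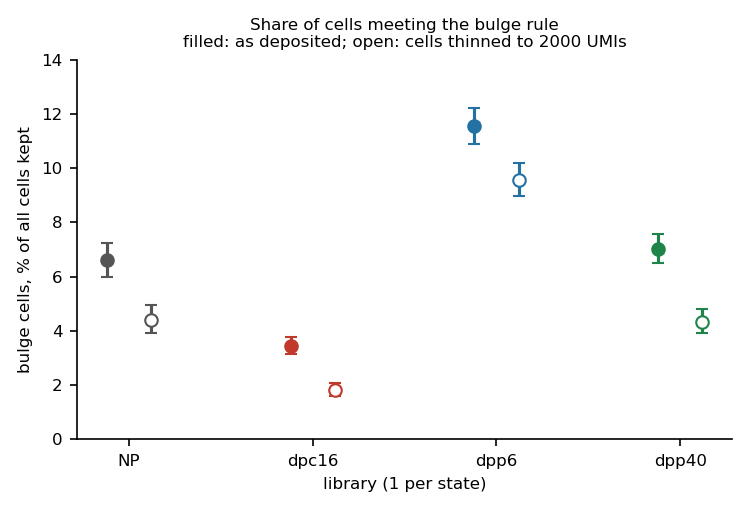
Share of all cells kept that met the bulge rule (y axis, %) in the library of each state (x axis), with exact binomial 95% intervals for counting error. Filled points are the cells as deposited (6.59%, 3.43%, 11.5% and 7.02%) and open points the cells thinned to 2000 UMIs (4.41%, 1.83%, 9.58% and 4.34%), and in both the dpc16 point is the lowest and the dpp6 point the highest.

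Bulge cells were compared within each library with 3 other keratinocyte classes, to show which genes mark them beyond the rule. Interfollicular basal-like cells (233, 182, 36 and 295 cells) held at least 10 UMIs of Krt5 and Krt14 together, and at least 4 times those of Krt1 and Krt10. They also held at least 2 UMIs of Ly6a, a surface protein of interfollicular basal cells, and none of the rule genes, Mki67, Top2a or Ptprc. Bulge cells had no limit on Krt1 and Krt10, so this choice favours higher suprabasal genes in bulge than in basal-like cells. Krt79-high cells (714, 1095, 1156 and 948) held at least 3 UMIs of Krt79, a keratin of the upper follicle, and none of Cd34 or Postn. Cells with at least 3 UMIs of Aspn, Nrtn and Pthlh together and under 3 of Krt79 (609, 663, 1165 and 916), called Aspn, Nrtn and Pthlh cells, may still hold Cd34 or Postn. That class also had no limit on Krt1 and Krt10. In it 29.1%, 44.5%, 17.5% and 39.8% of cells held 50 or more UMIs of both together. The shares were 5.84%, 11.1%, 3.74% and 5.33% in bulge cells. Its cells were deeper than bulge cells, with medians of 5624, 8100, 4504 and 8866.5 UMIs. Counts were summed per class and library, and edgeR's quasi-likelihood test with Benjamini-Hochberg adjustment compared the classes with the library as a block. The replicates are thus 4 libraries of different states. All 16 sums entered the same fit, so each p-value sets a class difference against a spread pooled over the 4 classes. All classes were chosen by counts in the same cells, so genes that defined a class are left out of its test.

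Against interfollicular basal-like cells, 2814 of 11205 genes passed at an adjusted p under 0.05 (25.1%), 1320 higher (11.8%) and 1494 lower (13.3%) in bulge cells, with the same direction in all 4 libraries for 2300 of them. The genes higher in bulge cells reached larger folds: 458 were over 4-fold higher and 60 over 4-fold lower. With 1 library left out, the count was 1830 without NP and 1753 without dpp40, and with basal cells chosen without Ly6a it was 4508. Against Krt79-high cells 5188 of 11213 genes passed (46.3%), 2175 higher (19.4%) and 3013 lower (26.9%). Against Aspn, Nrtn and Pthlh cells 5206 of 11213 passed (46.4%), 2391 higher (21.3%, 1524 without dpp40) and 2815 lower (25.1%). The median log2 difference over all genes tested was 0.01, -0.05 and 0.03 in the 3 comparisons.

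Transcription factors of bulge and follicle stem cells were higher in bulge cells than in basal-like cells for 16 of the 17 tested, with a median log2 difference of 2.18, and none was lower. Lhx2, a LIM homeobox factor that keeps follicle stem cells at rest, stood at 319, 254, 413 and 264 CPM in bulge cells and at 8.62, 1.11, 20.7 and 4.93 in basal-like cells, a log2 difference of 5.42 (edgeR adjusted p = 9.18e-11, higher in 4 of 4 libraries). Tbx1, a T-box factor of the bulge, stood at 182, 109, 217 and 129 CPM against 1.92, 1.11, 5.18 and 3.08 (log2 5.70, edgeR adjusted p = 2.30e-10). Sox9, needed to form and keep the bulge, stood at 374, 327, 393 and 325 CPM against 30.6, 10.0, 41.5 and 19.7 (log2 3.81, edgeR adjusted p = 2.34e-11). For these 3 genes every bulge sum lay above every basal-like sum. Nfatc1, a calcium-regulated factor that holds bulge cells at rest, stood at 63.3, 46.0, 61.3 and 54.3 CPM against 7.66, 5.56, 10.4 and 13.6 (log2 2.32, edgeR adjusted p = 2.17e-07). The chromatin and growth regulators Foxp1 (log2 2.18), Runx1 (2.60) and Vdr, the vitamin D receptor (2.2), were also higher, and Gli2, a hedgehog effector, was the 1 factor that did not pass (log2 1.5, edgeR adjusted p = 0.0878).

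The median differences of these factors from Krt79-high cells and from Aspn, Nrtn and Pthlh cells were smaller. Against Krt79-high cells 14 of 17 were higher and Foxc1 was lower (log2 -1.20), with a list median of 0.95, and against Aspn, Nrtn and Pthlh cells 14 were higher and none lower, with a median of 0.80. Sox9 in Krt79-high cells reached 229.9, 239, 262 and 229 CPM, close below the bulge level (log2 0.30, edgeR adjusted p = 0.0387). Tbx1 and Lhx2 kept large differences against Krt79-high cells (log2 4.68 and 3.18), where Tbx1 stood at 7.65, 3.36, 6.23 and 4.47 CPM. Nfatc1 did not pass against Aspn, Nrtn and Pthlh cells, where it stood at 52.5, 30.5, 62.0 and 38.2 CPM (log2 0.09, edgeR adjusted p = 0.582).

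Surface, niche and secreted genes of the bulge followed the factors: 16 of 30 were higher and 5 lower than in basal-like cells (median log2 1.55). Lgr5, the receptor for R-spondins that marks active and resting follicle stem cells, stood at 124, 42.6, 143 and 99.1 CPM in bulge cells and at 5.75, 0, 0 and 3.08 in basal-like cells (log2 4.77, edgeR adjusted p = 8.43e-08). Every bulge sum of Lgr5 lay above every sum of the other 3 classes except that Aspn, Nrtn and Pthlh cells of dpp6 (48.2 CPM) lay above bulge cells of dpc16 (42.6 CPM). Sfrp1 was higher by log2 3.39 than in basal-like cells, 5.00 than in Krt79-high cells and 2.30 than in Aspn, Nrtn and Pthlh cells (edgeR adjusted p = 4.07e-08, 4.16e-12 and 1.94e-08). Ptn was higher by 3.47, 2.74 and 1.15 in the same order. Cd200, an immune-inhibitory surface protein, was higher than in basal-like cells (log2 2.87) and lower than in Krt79-high cells (-1.45). Krt15, a keratin often used to mark the bulge, stood at 14343, 12817, 17418 and 12456 CPM in bulge cells and 11553, 13092, 9376 and 10598 in basal-like cells and did not separate them (log2 0.20, edgeR adjusted p = 0.233). It was higher than in Krt79-high cells (1.29) and in Aspn, Nrtn and Pthlh cells (1.39).

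**Figure D2:**
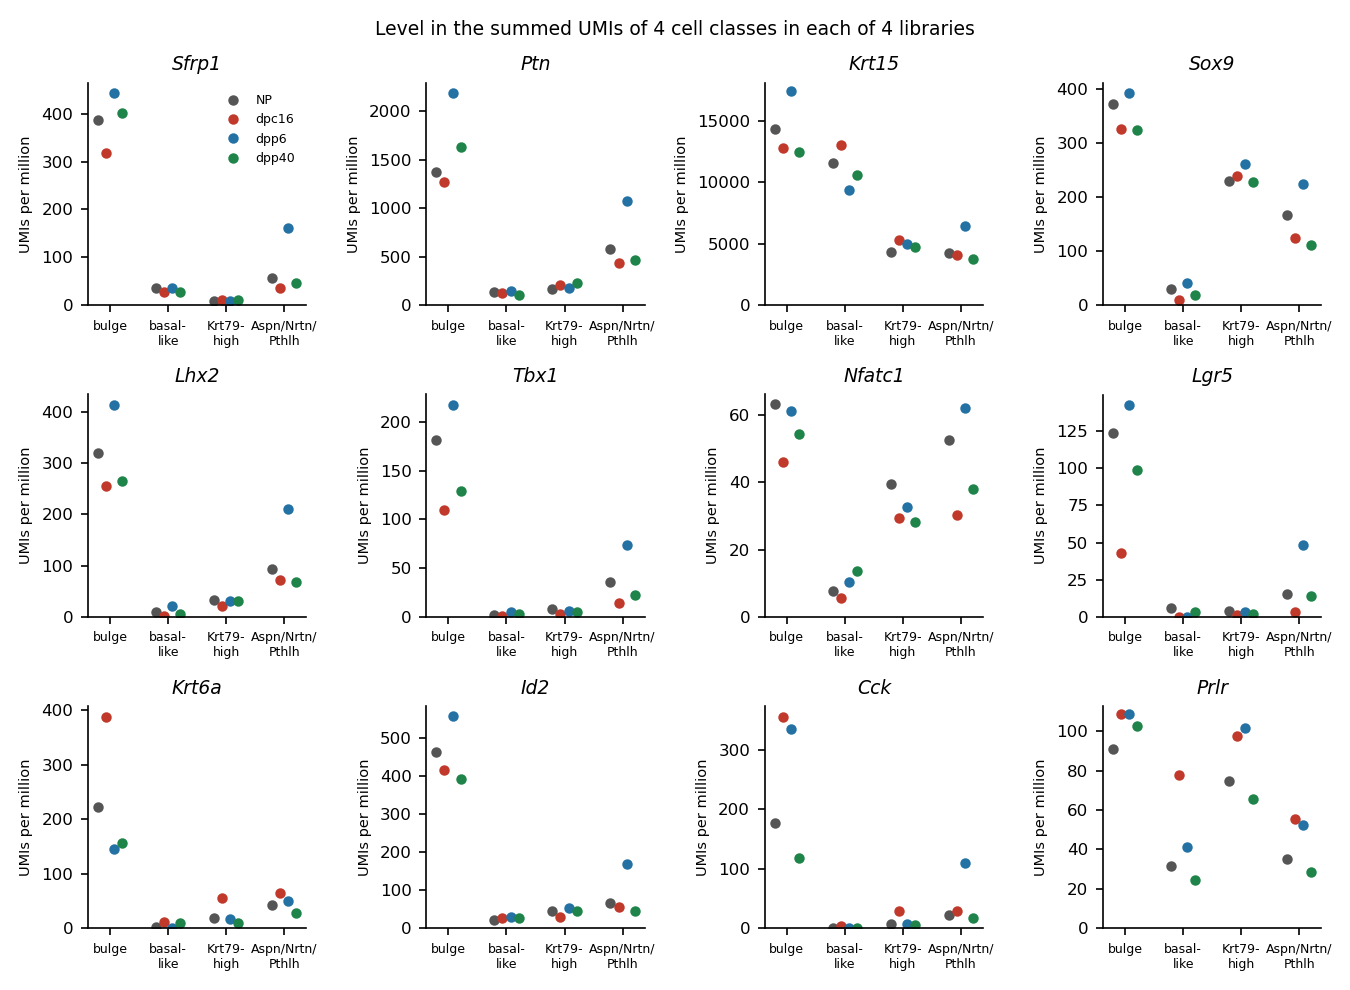
Level (y axis, CPM of summed UMIs) of 12 genes in bulge, basal-like, Krt79-high and Aspn, Nrtn and Pthlh cells (x axis), with 1 point for the library of each state. The bulge points of Sfrp1, Ptn, Lhx2, Tbx1 and Id2 lie above all others, while Krt15 overlaps between bulge and basal-like cells and Nfatc1 between bulge and Aspn, Nrtn and Pthlh cells.

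The 15 genes with the largest differences above basal-like cells included a peptide hormone, secreted binding proteins and inhibitors, and matrix genes. Cck, the peptide hormone cholecystokinin, stood at 246 ± 117 against 1.42 ± 2.10 CPM (SD over 4 libraries, as for the other genes of this paragraph), with the values 177, 355, 334 and 117 in bulge cells and a log2 difference of 6.78 by edgeR. Others were Igfbp6, a binding protein of insulin-like growth factor, at 71.8 ± 27.4 against 0.633 ± 0.903 CPM (log2 6.05), the cytokine receptor chain Il31ra at 52.5 ± 5.33 against 0.718 ± 1.44 (5.71) and Wfdc3, a protease inhibitor family member, at 247 ± 163 against 3.96 ± 3.31 (5.45). The collagen Col8a2 stood at 55.9 ± 17.0 against 1.76 ± 2.44 CPM (5.43) and Hmcn1, the matrix protein hemicentin, at 118 ± 53.9 against 2.76 ± 2.38 (4.81). The transglutaminase Tgm5 stood at 206 ± 120.2 against 10.7 ± 13.7 CPM (4.90), the calmodulin-like protein Calml3 at 594 ± 179 against 15.8 ± 5.42 (4.80), the metalloproteinase inhibitor Timp2 at 170.3 ± 51.4 against 5.12 ± 1.85 (4.77) and the BMP inhibitor Grem1 at 184 ± 25.6 against 8.76 ± 8.43 (4.75). Calml3 is also in the list of suprabasal interfollicular genes, and the basal-like class was kept low in Krt1 and Krt10. Its difference is thus no independent result. Trabd2b and Shisa2, both with products that act on Wnt signalling (log2 5.55 and 5.13), completed the list with Tbx1, Lhx2 and Lgr5. For each of these 15 genes the bulge and basal-like sums did not overlap.

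The 15 largest differences in the other direction were smaller and included signals of the interfollicular epidermis. Epgn, an epidermal growth factor receptor ligand, stood at 20.5 ± 9.23 against 137 ± 56.4 CPM in bulge against basal-like cells (SD, n = 4, log2 -2.86 by edgeR), and Hbegf, another such ligand, at 19.4 ± 7.36 against 94.4 ± 68.3 (-2.11). Il1r2, the interleukin 1 decoy receptor, stood at 78.8 ± 52.7 against 342 ± 36.2 CPM (-2.31), the alarmin Il33 at 31.2 ± 13.2 against 114 ± 21.9 (-2.13) and the serpin Serpinb2 at 138 ± 41.3 against 578 ± 176 (-2.16). The surface protein Ly6c1 (-3.02), the sodium pump subunit Atp1b1 (-2.63) and the matrix genes Efemp1 (-2.14) and Smoc2 (-2.01) were lower as well. Tgm3 (log2 -2.33) was the 1 gene of the 15 whose groups overlapped.

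The 6 largest differences each way from Krt79-high cells included a keratin, a channel and several secreted proteins. Fa2h and Teddm3 ranked 1 and 2 among the genes lower in bulge cells, and Cidea, a sebaceous gland marker, ranked 4. Krt24, a keratin, stood at 201 ± 71.5 against 1.94 ± 1.11 CPM in bulge against Krt79-high cells (SD, n = 4, log2 6.45 by edgeR), and Kcnk2, a potassium channel, at 242 ± 102 against 3.75 ± 1.08 (5.83). Cst6, a cysteine protease inhibitor, stood at 566 ± 71.7 against 27588 ± 7359.6 CPM (-5.84) and the defensin Defb6 at 246 ± 56.2 against 10708 ± 2108 (-5.71). Both are abundant products of Krt79-high cells and stood at 327, 247, 472 and 366 and 255, 128, 109 and 208 CPM in basal-like cells. Against Aspn, Nrtn and Pthlh cells, the calcium-binding S100a4 stood at 1235 ± 553 against 227 ± 209.5 CPM (2.43) and the collagen Col6a1 at 91.2 ± 15.1 against 16.0 ± 11.9 (2.41). The proteases and inhibitors Serpina12 (-6.76), Klk7 (-6.42) and Wfdc21 (-6.50) and the growth factor Btc (-6.25) were lower in bulge cells. Lypd5 and the filaggrin gene Flg completed the 6 largest differences in this direction. Of 11 suprabasal interfollicular genes tested, 10 were lower and 1 higher in bulge cells than in this class (median log2 -2.70). The part of cells with much Krt1 and Krt10 in these differences was not tested.

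BMP signalling genes were higher in bulge than in basal-like cells for 13 of the 25 tested and lower for 3 (median log2 0.73). The Id genes, transcriptional inhibitors that BMP signals induce, were among them. Id2 stood at 465, 418, 558 and 394 CPM against 21.1, 26.7, 31.1 and 27.7 (log2 3.86, edgeR adjusted p = 4.01e-10), and all bulge sums lay above those of each other class. Id1 stood at 263, 256, 308 and 262 CPM against 43.1, 77.9, 72.6 and 41.9 (2.13) and Id3 at 580.5, 628, 729 and 589 against 183, 356, 435 and 375 (0.83). The inhibitor Fst, follistatin, was higher than in basal-like cells (log2 2.57), while against Krt79-high cells it did not pass (edgeR adjusted p = 0.624). The ligand Bmp4 was lower (log2 -2.71), at 3.57, 14.1, 4.48 and 5.25 CPM against 41.2, 45.6, 10.4 and 45.6. Ltbp2, a protein related to those that hold latent TGF-beta in the matrix, was higher by log2 4.94, at 50.03, 19.5, 56.0 and 40.4 CPM.

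In the Wnt pathway, 8 of 9 ligands tested were lower in bulge than in basal-like cells, while 4 of 7 frizzled receptors were higher. Wnt4 stood at 83.2, 184, 93.1 and 52.2 CPM against 185, 276, 192 and 124 (log2 -1.09, edgeR adjusted p = 7.36e-07) and Wnt10a at 43.9, 63.3, 44.5 and 47.5 against 153, 135, 187 and 139 (-1.77). The ligands Wnt3 (-1.79), Wnt3a (-2.58), Wnt5a (-2.65), Wnt6 (-2.54), Wnt7b (-1.10) and Wnt16 (-2.67) were lower too, as was Rspo3, an R-spondin (-1.57). Fzd2, a frizzled receptor, stood at 133, 74.9, 137 and 115 CPM against 6.70, 3.34, 5.18 and 5.54 (log2 4.14, edgeR adjusted p = 4.09e-10), and Fzd1 (2.78), Fzd3 (2.05) and Fzd7 (3.14) were higher, while Fzd10 was lower (-1.74). The secreted inhibitors or modulators Dkk3 (3.82), Wif1 (3.46), Sostdc1 (1.75) and Sfrp1 were all higher. Over the whole list 11 of 28 were higher and 10 lower, with a median log2 of 0.33. Axin2, a target gene that reports canonical Wnt signalling, did not pass the test (log2 -0.25, edgeR adjusted p = 0.520).

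The MHC class I genes B2m, H2-K1 and H2-D1, which present peptides to T cells, were lower in bulge cells than in each other class. B2m, the light chain, stood at 1623, 2172, 1272 and 1602 CPM in bulge cells, 3446, 3084, 2861 and 3160.4 in basal-like cells and 3248, 3094, 3523 and 3321 in Krt79-high cells (log2 -1.06 and -1.26, edgeR adjusted p = 1.49e-07 and 2.09e-09). H2-K1 differed by -0.84, -1.04 and -0.85, H2-D1 by -0.96, -0.82 and -0.75, and the peptide transporter Tap1 by -0.92, -1.12 and -0.75 against basal-like, Krt79-high and Aspn, Nrtn and Pthlh cells. In the list of MHC class I and immune privilege genes, 10 of 16 tested were lower and 1, Cd200, was higher than in basal-like cells (median log2 -0.88).

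The matrix list differed most from Krt79-high cells, with 20 of 24 genes higher and none lower (median log2 1.85). It also differed from Aspn, Nrtn and Pthlh cells (20 higher, none lower, median 0.83) and less from basal-like cells (10 higher, 2 lower, median 0.17). Ctgf, a matricellular growth factor, stood at 214, 168, 135 and 310.5 CPM against 11.5, 1.11, 10.4 and 9.24 in basal-like cells (log2 4.66, edgeR adjusted p = 1.39e-09), and the matrix protein Fbln1 at 49.5, 37.7, 68.0 and 68.5 against 1.92, 0, 0 and 3.70 (4.49). Col18a1, a basement membrane collagen, was higher than in all 3 classes (log2 1.76, 3.48 and 2.12). Shared basement membrane genes of basal keratinocytes, such as Col17a1 and Itgb4, did not differ past the threshold from basal-like cells (log2 0.24 and -0.19).

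Krt6a was higher in bulge cells than in each other class, and S phase genes were lower than in basal-like cells. Krt6a, a keratin of the companion layer and inner bulge, stood at 223, 388, 145 and 156 CPM in bulge cells against 1.92, 12.2, 0 and 9.24 in basal-like cells (log2 4.74, edgeR adjusted p = 2.52e-09). Genes of S phase were lower than in basal-like cells for 12 of 23 tested and higher for none (median log2 -0.77), although the basal-like class had been kept free of Mki67 and Top2a UMIs. Mcm6, a subunit of the replicative helicase, stood at 11.7, 16.1, 17.5 and 16.7 CPM against 24.9, 32.3, 51.8 and 32.0 (log2 -1.25). The cyclins Ccnd1 and Ccnd2 were lower as well (log2 -1.46 and -1.55). The S phase genes were not low beside the other classes. Against Krt79-high cells 7 of 23 were higher and 0 lower (median 0.17), beside 19.4% and 26.9% of all genes. Against Aspn, Nrtn and Pthlh cells 5 were higher and 1 lower (median -0.03), beside 21.3% and 25.1% of all genes. These 5 thus lay near the share over all genes. Genes of G2 and mitosis were higher than in basal-like cells for 7 of 19 and lower for 1 (median 1.09). This is no independent result because the basal-like class was chosen without cells that held Mki67 or Top2a. Of 22 immediate early and heat shock genes, 15 were lower and 2 higher than in basal-like cells (median -0.47). Against Krt79-high cells 4 were lower and 8 higher, and against Aspn, Nrtn and Pthlh cells 2 were lower and 11 higher.

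Prlr, the prolactin receptor, stood at 90.9, 108, 109 and 102 CPM in bulge cells against 31.6, 77.9, 41.5 and 24.6 in basal-like cells (log2 1.13, edgeR adjusted p = 1.22e-04, higher in 4 of 4 libraries). Krt79-high cells held it at 74.7, 97.4, 101 and 65.8 CPM and did not differ past the threshold (log2 0.05, edgeR adjusted p = 0.804). Over 13 genes of the prolactin receptor and STAT5 pathway, 2 were higher and 3 lower than in basal-like cells. The glucocorticoid receptor gene Nr3c1 stood at 143, 88.6, 164 and 141 CPM against 50.8, 51.2, 72.6 and 44.4 and was higher than in each of the 3 classes (log2 1.19, 1.14 and 1.07). Tbx3, whose locus drives the Cre, stood at 7.66, 9.52, 2.91 and 3.70 CPM and the EGFP reporter transcript at 2.04, 2.898, 2.69 and 2.16 CPM in bulge cells, with at most 23 UMIs of Tbx3 in a sum.

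Between states, bulge cells differed most from NP at dpc16. A gene was counted when its summed rate differed at least 2 times and the higher sum held at least 50 UMIs. A gene with under 50 UMIs in NP could thus be measured only by lying above NP. One with under 50 in the other state could be measured only by lying below NP. At dpc16 this held for 148 of the 4867 genes measured (3.04%), 81 higher (1.66%) and 67 lower (1.38%). At dpp6 it held for 111 of 6179 (1.8%), 78 higher (1.26%) and 33 lower (0.534%), and at dpp40 for 61 of 5257 (1.16%), 39 higher (0.742%) and 22 lower (0.418%), or 46 higher and 15 lower with TMM scaling. The median log2 fold over all genes measured was 0.03 at dpc16, 0.10 at dpp6 and -0.01 at dpp40. All 3 comparisons share the NP library, so that a chance deviation of NP would appear in each.

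No bulge transcription factor differed 2 times from NP in any state, but most stood lower at dpc16. Of the 15 measured, 13 lay below NP at dpc16 (median log2 fold -0.42, beside 2245 of all 4867 genes), 4 at dpp6 (median 0.07, beside 1887 of 6179) and 12 at dpp40 (median -0.14, beside 2690 of 5257). Tbx1 stood at 182, 109, 217 and 129 CPM, a dpc16 fold of 0.601 [0.511 to 0.707]. Foxp1, a forkhead factor, stood at 223, 146, 268 and 208 CPM and Runx1, a factor of stem cell activation, at 51.1, 29.8, 37.4 and 44.4 CPM, with dpc16 folds of 0.657 [0.569 to 0.757] and 0.584 [0.425 to 0.798]. Lhx2 stood at 319, 254, 413 and 264 CPM, with a fold of 0.797 [0.712 to 0.892] at dpc16 and 1.29 [1.18 to 1.42] at dpp6. Tcf7l2, a DNA-binding partner of beta-catenin, was the 1 factor whose dpc16 interval lay above 1, at 61.8, 93.2, 74.8 and 69.1 CPM and a fold of 1.51 [1.20 to 1.90]. Nfatc1, at 63.3, 46.0, 61.3 and 54.3 CPM, had a dpc16 fold of 0.726 [0.557 to 0.945].

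Several niche genes of the bulge stood lowest at dpc16. Lgr5 stood at 124, 42.6, 143 and 99.1 CPM, lowest in the dpc16 library, with a fold over NP of 0.344 [0.270 to 0.435] there, 1.15 [0.990 to 1.34] at dpp6 and 0.799 [0.674 to 0.947] at dpp40. The share of bulge cells with a UMI of Lgr5, after thinning to 2000 UMIs, was 23.4% in NP, 11.6% in dpc16, 24.3% in dpp6 and 18.2% in dpp40 (37.6%, 17.9%, 38.9% and 34.2% unthinned). In Krt79-high cells, which should lack the gene, the thinned share was 0.183% to 0.7%. Tnc, the matrix glycoprotein tenascin C, stood at 29.6, 4.97, 27.3 and 19.8 CPM (dpc16 fold 0.168 [0.0820 to 0.316]) and Hmcn1 at 146, 37.3, 146 and 143 CPM (0.256 [0.1998 to 0.326]). Sostdc1, the secreted BMP and Wnt modulator, stood at 374, 166, 566 and 399.7 CPM (0.445 [0.393 to 0.504]). For all 4 of these genes dpc16 was the lowest library. Cd200 stood at 120.5, 62.5, 85.3 and 130.2 CPM, Fgfr1, a fibroblast growth factor receptor, at 140.4, 74.5, 141 and 154 and Fzd2 at 133, 74.9, 137 and 115, with dpc16 folds of 0.519 [0.420 to 0.639], 0.531 [0.437 to 0.643] and 0.565 [0.464 to 0.685]. Of 23 surface, niche and secreted genes measured at dpc16, 15 lay below NP (median log2 -0.16) and 8 above, beside 2245 of 4867 below over all genes, with 1 higher and 2 lower by 2 times. Il34, a ligand of the CSF1 receptor, at 39.3, 79.5, 36.0 and 42.0 CPM, and Igfbp3, a binding protein of insulin-like growth factor, at 232, 386, 327 and 252 CPM, were among those above (2.02 [1.54 to 2.67] and 1.66 [1.48 to 1.86]). In basal-like cells chosen without Ly6a, Lgr5 stood at 7.42, 0.815, 3.60 and 6.49 CPM and Hmcn1 at 12.8, 3.12, 8.41 and 10.8, low in all states and lowest at dpc16.

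Other genes lower at dpc16 were a cell cycle inhibitor and matrix genes. Cdkn1b, the inhibitor p27, stood at 34.7, 11.6, 21.5 and 20.1 CPM (dpc16 fold 0.334 [0.207 to 0.526]), and Txnip, a thioredoxin inhibitor linked to rest, at 471, 216, 321 and 461 CPM (0.459 [0.412 to 0.512]). Cdkn1a, the inhibitor p21, stood higher, at 168, 259.6, 160.3 and 161 CPM (1.54 [1.35 to 1.77]). Fam13a stood at 30.1, 7.45, 36.3 and 45.1 CPM (0.247 [0.137 to 0.425]), the secreted matrix gene Spon2 at 27.1, 8.28, 18.4 and 13.9 (0.306 [0.173 to 0.521]), Abi3bp at 36.2, 12.4, 20.4 and 24.1 (0.343 [0.216 to 0.532]) and the semaphorin Sema3d at 30.1, 10.4, 9.40 and 17.9 (0.344 [0.206 to 0.557]). Maged1 stood at 60.2, 21.5, 48.1 and 60.2 CPM and Lsm7, an RNA-binding subunit, at 79.6, 29.0, 32.7 and 44.4 (dpc16 folds 0.357 [0.253 to 0.499] and 0.364 [0.270 to 0.485]). Of these genes Sema3d and Lsm7 were also low at dpp6, while Fam13a and Maged1 stood at or above NP at dpp40. Ltbp2 and Ltbp3, of the latent TGF-beta binding family, stood at 50.03, 19.5, 56.0 and 40.4 and 59.2, 26.1, 56.2 and 50.9 CPM (dpc16 folds 0.389 [0.269 to 0.556] and 0.440 [0.319 to 0.604]).

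Single hormone-responsive genes were higher at dpc16, while most of their lists stayed within 2 times of NP, as did most genes measured. Of 10 genes measured in the prolactin receptor and STAT5 list 2 were past 2 times higher (8 above NP, 2 below, median log2 0.26). Of 12 in the steroid and glucocorticoid list 2 were (7 above, 5 below, median 0.09). Over all genes, 81 of 4867 were past 2 times higher (1.66%) and 2622 lay above NP. No gene of either list was past 2 times lower. Socs2, a feedback inhibitor that STAT5 induces, stood at 6.64, 34.8, 9.63 and 9.88 CPM, a dpc16 fold of 5.24 [2.904 to 10.2], from 84 UMIs spread over 77 cells. Cish, another STAT5 target, stood at 16.3, 58.0, 21.3 and 28.4 CPM (3.55 [2.40 to 5.39]). Prlr itself stood at 90.9, 108, 109 and 102 CPM, with folds of 1.19 [0.983 to 1.45], 1.19 [1.004 to 1.43] and 1.13 [0.937 to 1.36] in the 3 states, the first and the last with an interval that includes 1. The glucocorticoid-inducible genes Fkbp5, a receptor co-chaperone, at 15.8, 62.5, 10.5 and 7.72 CPM, and Zbtb16, a zinc finger factor, at 14.8, 38.1, 13.4 and 14.5 CPM, had dpc16 folds of 3.95 [2.67 to 6.02] and 2.57 [1.68 to 4.05]. Other inducible genes of that list did not follow: Tsc22d3 stood at 186, 145, 139 and 235 CPM and Sgk1 at 105, 64.6, 104 and 109, both below NP at dpc16. Akr1c18, the enzyme that breaks down progesterone, stood at 26.5, 176, 41.0 and 20.4 CPM (6.61 [4.95 to 8.998]), from 424 UMIs over 92 cells. All 5 of these higher genes were highest in dpc16, and the other 3 libraries lay at 41.0 CPM or below for each. In basal-like cells chosen without Ly6a, Socs2 stood at 4.16, 39.5, 6.81 and 3.10 CPM, Fkbp5 at 16.0, 42.2, 14.8 and 8.71, Cish at 36.2, 71.9, 59.9 and 51.4 and Akr1c18 at 93.3, 199, 119.7 and 38.5, so these genes were highest at dpc16 outside the bulge too. Whether the difference between NP and dpc16 differed between the classes was not tested.

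**Figure D3:**
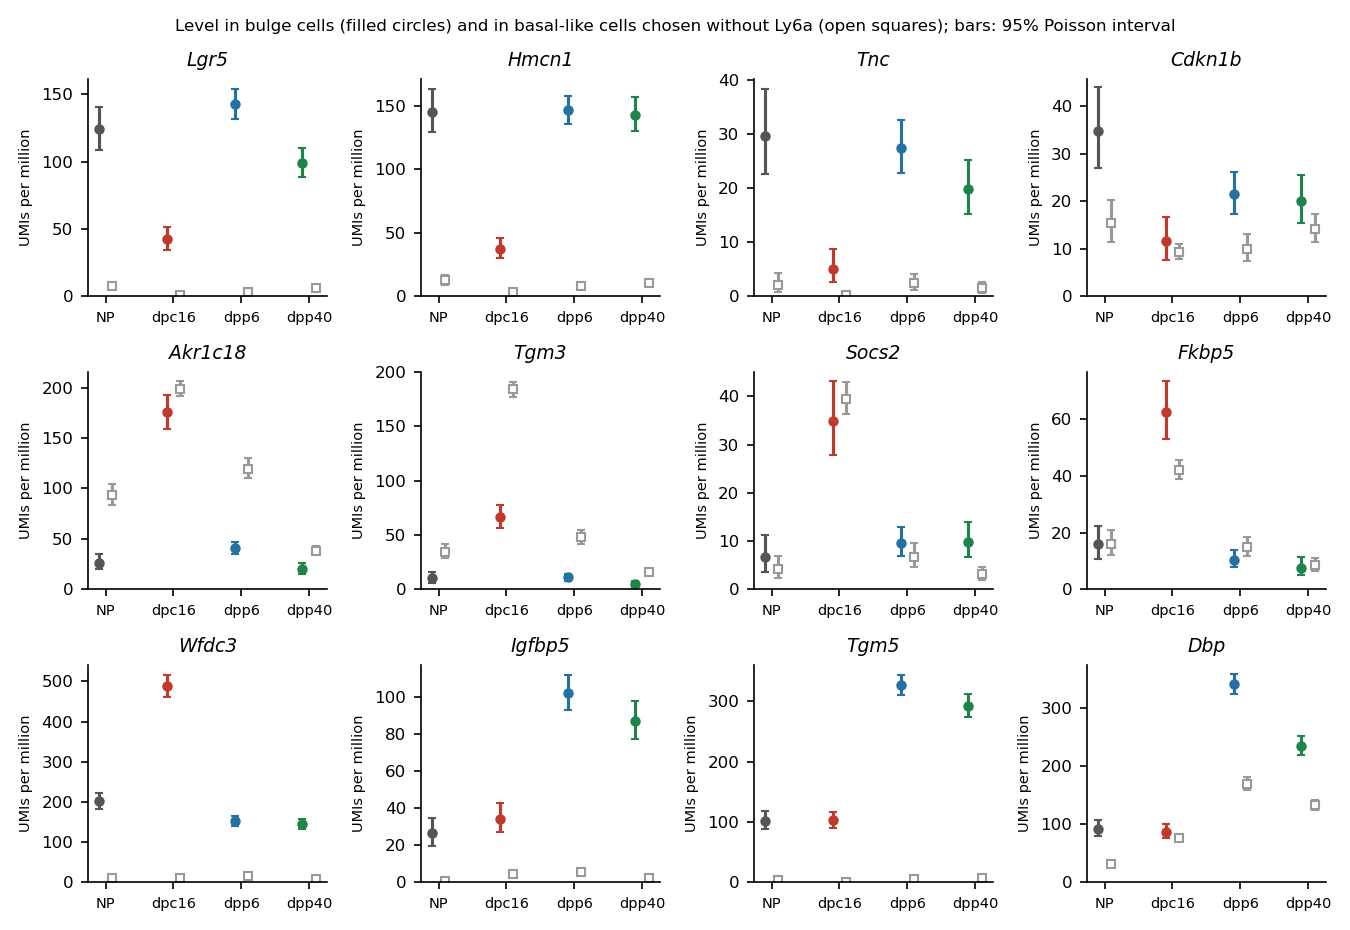
Level (y axis, CPM of summed UMIs) of 12 genes in the library of each state (x axis), in bulge cells (filled circles) and in basal-like cells chosen without Ly6a (open squares), with Poisson 95% intervals. Lgr5, Hmcn1, Tnc and Cdkn1b are lowest at dpc16 in bulge cells, Akr1c18, Tgm3, Socs2, Fkbp5 and Wfdc3 are highest there, and Igfbp5, Tgm5 and Dbp are high at dpp6 and dpp40.

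Tgm3, Serpina3b, Mid1, Ccl2 and 3 stefins were among the other large folds at dpc16. The list of suprabasal interfollicular genes had 3 of 9 above NP and 6 below (median log2 -0.20). Tgm3, a transglutaminase of the cornified envelope, stood at 10.2, 66.7, 11.0 and 4.63 CPM (6.53 [4.09 to 11.0]) with UMIs in 101 of 441 bulge cells, and at 34.7, 184, 47.8 and 15.6 CPM in basal-like cells chosen without Ly6a. Serpina3b, a serpin, stood at 2.55, 23.6, 0.895 and 1.85 CPM (9.24 [3.74 to 29.6]), from 57 UMIs in 49 cells, and the ubiquitin ligase gene Mid1 at 15.8, 64.2, 12.8 and 15.7 CPM (4.05 [2.74 to 6.17]). Ccl2, a chemokine, reached the largest fold, at 3.06, 31.5, 10.7 and 14.2 CPM (10.3 [4.51 to 28.9]), but its 76 UMIs lay in 19 cells. The stefins BC100530, Stfa1 and Stfa3, inhibitors of cysteine proteases, had dpc16 folds of 7.76, 6.83 and 5.08, and much of their signal lay in the members with high Krt1 and Krt10 described below. In the Wnt pathway list 4 of 11 genes measured at dpc16 lay above NP and 7 below (median log2 -0.28), and those past 2 times were 3 higher and 1 lower. The ligand Wnt4 stood at 83.2, 184, 93.1 and 52.2 CPM (2.21 [1.85 to 2.67]) and Wnt3 at 13.8, 38.9, 15.4 and 18.2 CPM (2.82 [1.82 to 4.51]). Cyclin D2 (Ccnd2) stood at 186, 379, 219 and 275 CPM (2.04 [1.80 to 2.30]), Krt14 at 2957, 4619.6, 2955 and 3423 CPM (1.56 [1.51 to 1.61]) and the integrin Itga6 at 141, 218, 125 and 141 CPM (1.55 [1.33 to 1.79]), all of them genes with higher levels in interfollicular basal-like cells, of which Krt14 helped define that class. The list of interfollicular basal genes as a whole stood near NP at dpc16, with 10 of 16 above and 6 below and a median log2 of 0.04, beside 0.03 over all genes. The share of members with high Krt1 and Krt10 was also highest at dpc16 (12.9%). Without those members the dpc16 fold was 2.60 [2.10 to 3.23] for Wnt4 and 0.336 [0.259 to 0.433] for Lgr5.

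Krt6a and Wfdc3 were bulge genes that stood highest at dpc16. Krt6a stood at 223, 388, 145 and 156 CPM (1.74 [1.55 to 1.95] at dpc16, 0.649 [0.574 to 0.735] at dpp6 and 0.699 [0.613 to 0.796] at dpp40). Wfdc3 stood at 202, 488, 153 and 144 CPM (2.42 [2.16 to 2.72] at dpc16). After thinning, 31.8%, 49.2%, 19.8% and 22.3% of bulge cells held a UMI of Krt6a, against 2.16% to 5.57% of Krt79-high cells thinned to the same depth. Members with 3 or more UMIs of Krt6a numbered 48 of 428 (11.2%, exact interval 8.39% to 14.6%), 137 of 441 (31.1%, 26.8% to 35.6%), 75 of 1043 (7.19%, 5.70% to 8.93%) and 54 of 600 (9%, 6.83% to 11.6%). This subset was chosen after its values were seen, and it is described only. Its cells held a median of 3706.5, 4734, 3806 and 4146 UMIs, close to the 3537.5, 4948, 3454.5 and 4358.5 of the other members. Wfdc3 was higher in them in every library, at 429, 766, 256 and 243 CPM against 173, 372, 144 and 135 in the others. The matricellular gene Cyr61, at 703, 599, 953 and 1900 against 332, 341, 516 and 695 CPM, and the small heat shock protein gene Hspb1 were higher in them in all 4 libraries as well.

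Igfbp5, Tgm5 and Dbp stood above NP in both post partum libraries. Igfbp5, an insulin-like growth factor binding protein, stood at 26.5, 34.4, 102 and 86.7 CPM, with folds of 3.84 [2.88 to 5.22] at dpp6 and 3.27 [2.42 to 4.48] at dpp40 and UMIs in 207 cells of dpp6. Tgm5 stood at 103, 103, 327 and 292 CPM, folds of 3.18 [2.75 to 3.71] and 2.85 [2.44 to 3.33]. NP and dpc16 were low and both post partum libraries high for these 2 genes. In basal-like cells chosen without Ly6a, Igfbp5 lay at 0.891, 4.28, 5.41 and 2.51 CPM and Tgm5 at 4.16, 1.36, 6.01 and 6.49. Dbp, a transcription factor that cycles with the circadian clock, stood at 92.4, 87.4, 340.5 and 235 CPM (3.68 [3.16 to 4.32] and 2.55 [2.16 to 3.01]), and the clock repressors Bhlhe41 and Bhlhe40 at 6.13, 11.6, 18.6 and 18.2 and 10.2, 23.2, 27.3 and 39.5 CPM. Dbp was high post partum in basal-like cells without Ly6a too (31.5, 76.4, 169 and 133 CPM), and the hour of collection is not stated in the labels. Npnt, the matrix protein nephronectin that anchors the arrector pili muscle to the bulge, stood at 50.5, 29.4, 110.1 and 66.7 CPM, a dpp6 fold of 2.18 [1.75 to 2.73] and a dpc16 fold of 0.582 [0.423 to 0.797]. The homeobox gene Hoxb8 stood at 14.8, 6.62, 47.5 and 33.6 CPM (3.21 [2.17 to 4.90] at dpp6) and Ptn at 1374, 1270.2, 2186 and 1627 CPM (1.59 [1.52 to 1.66]).

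Some of the largest post partum folds rested on few cells or on genes of other cell types. Dcn, the fibroblast proteoglycan decorin, had 0 UMIs in NP and 55 in dpp6 (at least 8.04-fold higher, against a floor of 3 UMIs per library), of which 54 came from 1 cell. The list of fibroblast markers summed highest at dpp6 (209.97 CPM, none of the 12 at 0). However, it holds Col6a1, a gene spread over many bulge cells, and the dpp6 sum was the deepest, at 4467392 UMIs. Bgn, a proteoglycan also made by fibroblasts, stood at 8.68, 2.48, 34.0 and 22.5 CPM (3.92 [2.37 to 6.91]), with 152 UMIs in 84 cells of dpp6, and the part of fibroblast RNA in its fold was not tested. Hbb-bs, a haemoglobin chain of red blood cells, stood at 43.4, 20.7, 11.6 and 0 CPM, from 85 UMIs in NP to 0 in dpp40 (at least 46.9-fold lower). Pyy, the peptide YY gene, was lower at dpp40, but 28 of its 56 NP UMIs lay in 1 cell. Cd74 and Cd3g, genes of immune cells, were lower at dpp40 (0.370 and 0.316), with 146 of 417 and 39 of 86 NP UMIs in 1 cell. At dpp40 Cxcl1 and Nppc were higher, with 53 and 68 UMIs in 19 and 25 cells.

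**Figure D4:**
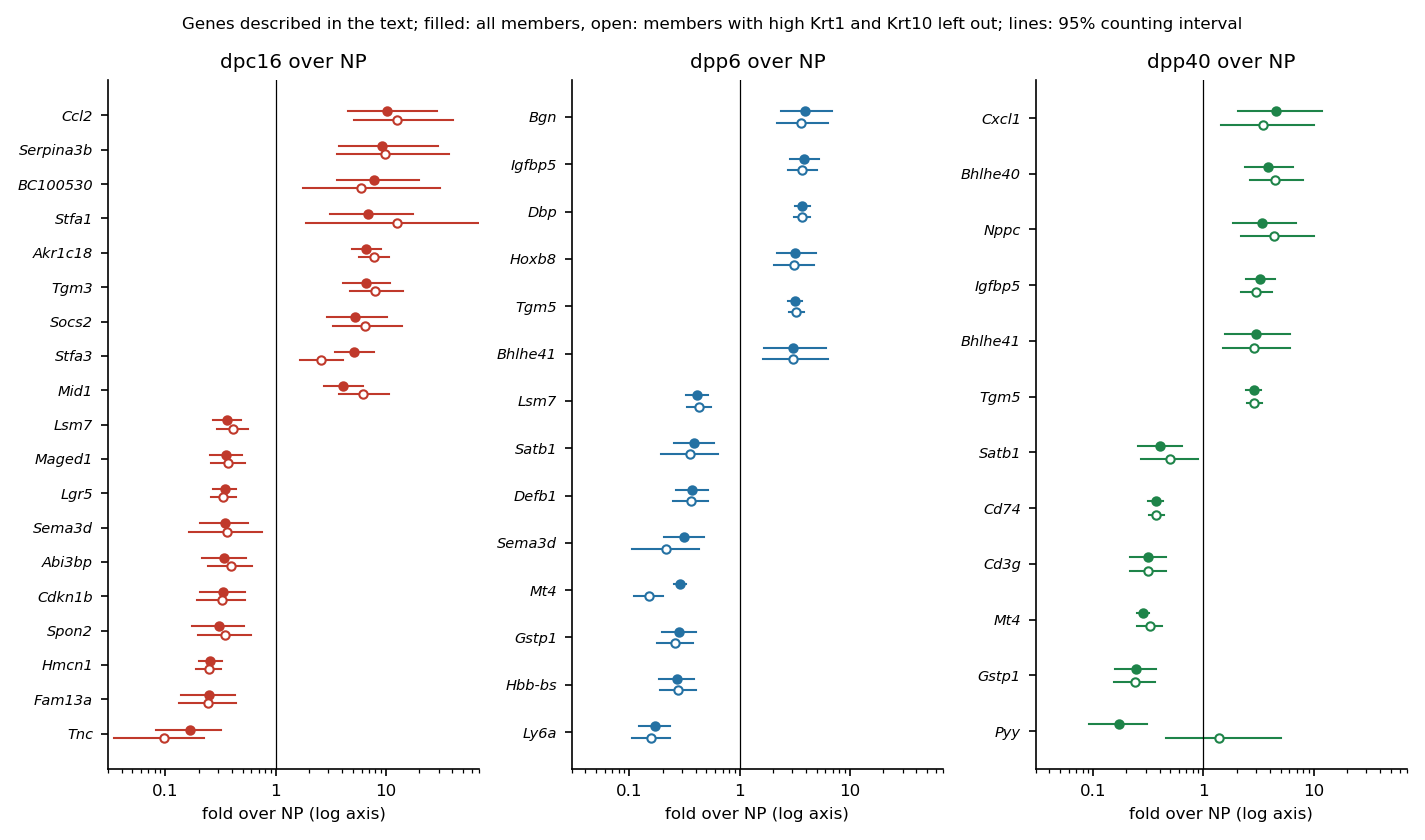
Fold over NP (x axis, log scale) of the genes described in the text among the 10 largest folds each way in bulge cells of each state (y axis), with 95% intervals for counting error. Filled symbols are all members and open symbols the members without high Krt1 and Krt10; Dcn at dpp6 and Hbb-bs at dpp40 have a sum of 0 and are not drawn, the open interval of Stfa1 runs past the axis, and Pyy at dpp40 changes side.

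Mt4 and Gstp1 were lower in both post partum libraries. Mt4, a metallothionein of differentiating epidermis, stood at 355, 308, 102 and 101 CPM (0.287 [0.254 to 0.324] at dpp6 and 0.284 [0.248 to 0.324] at dpp40), and Gstp1, a glutathione transferase, at 42.9, 34.8, 12.1 and 10.5 CPM (0.282 [0.196 to 0.401] and 0.245 [0.159 to 0.369]). Satb1, a chromatin organiser, and Defb1, a defensin, were lower at dpp6 (0.387 and 0.373). Ly6a stood at 72.0, 28.6, 12.3 and 47.2 CPM (0.171 [0.123 to 0.235] at dpp6), and in basal-like cells chosen without it at 273, 69.9, 41.4 and 177, lowest at dpp6 in both. Mt4 in NP rested mostly on members with high Krt1 and Krt10: without them its NP UMIs went from 695 to 170. These members were 7.94% of bulge cells in NP, 4.22% in dpp6 and 6.83% in dpp40. Fgf18, a growth factor that holds the bulge at rest, stood at 23.5, 24.8, 40.7 and 7.72 CPM, low at dpp40 with 25 UMIs (fold 0.329 [0.193 to 0.546]) and above NP at dpp6 (1.73 [1.25 to 2.45]).

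Most of the G2 and mitosis genes measured stood above NP in the other 3 states, but the UMI limit fixed this direction for part of them. Above NP were 9 of 10 measured at dpc16, 13 of 13 at dpp6 and 11 of 12 at dpp40 (median log2 0.51, 0.36 and 0.54), beside 2622 of 4867, 4292 of 6179 and 2567 of 5257 over all genes, with 3, 2 and 5 of them past 2 times. Cdk1, the mitotic kinase, stood at 10.2, 25.7, 23.3 and 22.5 CPM (folds 2.51, 2.28 and 2.21). Its counts were small, with 20 UMIs in NP, and Top2a stood at 33.2, 26.9, 38.3 and 31.2 CPM with no such order. The thinned share of bulge cells with a UMI of Top2a was 1.87%, 3.4%, 2.3% and 3.5%. T cells of the same libraries held it in 2.33% to 9.62%, which is no background level for a cell cycle gene. Unthinned, 3.74%, 9.52%, 4.79% and 6.83% of bulge cells held a UMI of Mki67 or Top2a. The exact intervals of NP (2.15% to 6.00%) and dpc16 (6.95% to 12.7%) lie apart, but bulge cells of dpc16 were also deeper. With 3 or more UMIs the shares were 1.87%, 2.95%, 2.30% and 2.83%. A difference in dividing cells between states was not tested. S phase genes had medians of 0.31, 0.42 and 0.25 and none past 2 times.

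Most immediate early genes also stood above NP. At dpc16, 19 of 21 immediate early and heat shock genes lay above NP, at dpp6 21 of 22 and at dpp40 20 of 22 (median log2 0.46, 0.20 and 0.59), beside 2622 of 4867, 4292 of 6179 and 2567 of 5257 over all genes. Without the members high in Krt1 and Krt10 the count at dpp6 was 15 of 21, beside 4065 of 5622 over all genes. Fos stood at 1358, 1873, 1435 and 2343 CPM, Atf3, a stress-induced factor, at 500.3, 822, 703 and 835 and Hspa1a, the inducible HSP70, at 303, 383, 526 and 698. In basal-like cells Fos stood at 1791, 2558, 2514 and 3264 CPM and Hspa1a at 189, 295, 394 and 616, with NP lowest as well. These genes are known to respond to cell dissociation. B2m stood at 1623, 2172, 1272 and 1602 CPM, a dpc16 fold of 1.34 [1.28 to 1.40], and 8 of the 10 measured genes of the MHC class I list lay above NP at dpc16 (2622 of 4867 over all genes) and 2 at dpp6 (4292 of 6179).

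Bulge cells of each library fell into a large group with little Krt1 and Krt10, the keratins of suprabasal cells, and a small group with much of both. Members with at least 0.5% of their UMIs from this pair numbered 34 (7.94%), 57 (12.9%), 44 (4.22%) and 41 (6.83%), while 321, 296, 952 and 459 members held under 0.1%. Near the limit, between 0.2% and 0.5%, lay 16, 11, 4 and 8 cells. The high members held more UMIs than the others, with medians of 7935, 8754, 9996.5 and 8772 against 3489, 4493.5, 3432 and 4264. In NP they held Sfrp1 at 131 CPM against 435 in the others, Ptn at 489.8 against 1537 and Krt15 at 8169 against 15478. Krt10 was the most variable gene among bulge cells in the combined ranking of the 4 libraries, followed by Krtdap, an epidermal differentiation gene. Doublets were not removed, and the part of doublets in this group was not tested.

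**Figure D5:**
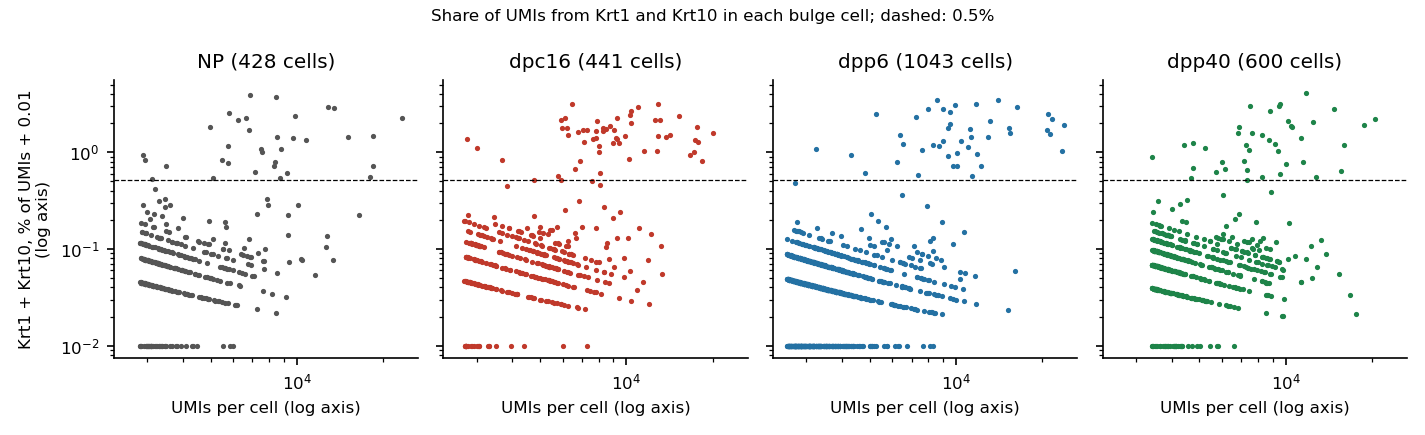
Share of UMIs from Krt1 and Krt10 (y axis, % plus 0.01, log scale) against the UMIs of each bulge cell (x axis, log scale) in the library of each state. Above the dashed line at 0.5% lie 34, 57, 44 and 41 cells, apart from the larger group below it and mostly to its right.

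Without these members, Lgr5, Hmcn1 and Tnc were again lower at dpc16 (folds 0.336, 0.247 and 0.0970) and Akr1c18, Socs2 and Tgm3 higher (7.72, 6.40 and 7.89). Of the 81 genes higher and 67 lower at dpc16, 53 and 52 were past 2 times again, and the counts past 2 times were 94 higher and 58 lower at dpc16, 91 and 35 at dpp6, and 42 and 21 at dpp40. Of the bulge transcription factors 12 of 14 measured lay below NP at dpc16 without them, beside 1858 of 4136 over all genes. Stfa1 then held 14 in place of 59 UMIs at dpc16 and BC100530 20 in place of 67. Pyy at dpp40 was the 1 named gene that changed direction, resting then on 12 and 5 UMIs.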

How the data were processed

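The 4 single-cell libraries were used, 1 per state, as UMI counts per gene and cell that the authors deposited. Per the submitters' processing notes they were made with Cell Ranger 2.2.0 on mm10. The bulk RNA table (9 columns) was not used here. Cells with 200 or more genes and no more than 10% UMIs of mitochondrial genes gave 6491, 12853, 9031 and 8552 of 6635, 12984, 9351 and 8716 barcodes, and doublets were not removed. Counts were summed per class and library with Python 3.11.15, numpy 2.4.6, scipy 1.17.1 and pandas 2.3.3. Classes were compared in R 4.3.3 with edgeR 4.0.16 (quasi-likelihood test, TMM, filterByExpr, library as block, Benjamini-Hochberg adjusted p under 0.05), and with DESeq2 1.42.0 as an alternative. Nothing in the labels ties a library to its own animals, and the p-values rest on the sums of these 4 libraries only. Genes that defined a class were left out of its test.

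Between states, a fold was read where the higher sum held at least 50 UMIs, with exact conditional 95% intervals. Alternatives were other scalings and filters, each library left out, other limits of the rule, thinned cells and, added after seeing the data, members without high Krt1 and Krt10. Genes named were the rule genes and markers, genes of 29 lists, the 15 largest differences each way from basal-like cells (adjusted p under 0.05, at least 50 CPM, same direction in 4 libraries), the 6 largest each way from each other class and the 10 largest folds each way per state, without mitochondrial, ribosomal and unnamed genes; 1 gene that meets the rule is not reported here. The members, the lists and this rule were chosen with earlier results of these data known. The test was checked on simulated counts for 10951 genes, where it recovered 78, 97 and 96 of 100 genes changed 2-fold and 98, 100 and 100 of 100 changed 4-fold, in the comparisons with basal-like, Krt79-high and Aspn, Nrtn and Pthlh cells. Of 179, 211 and 199 genes called there, 3, 14 and 3 were unchanged. The changed genes were drawn only from those with high summed counts, so recovery of genes with low counts was not measured. Apart from the changed genes, all simulated classes and libraries shared the same expected profile, unlike the real data.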

Additional observations from a re-analysis of the deposited data

Results flagged for a closer look

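For 2 genes the level was past 2 times NP one way in bulge cells and past 2 times the other way in basal-like cells. The difference between the classes was not tested, and each state has 1 library. Guca2a, which encodes the peptide guanylin, stood at 44.1 CPM in bulge cells of dpp6 against 22.0 in NP, a fold of 2.01 (197 and 43 UMIs), while in basal-like cells it stood at 41.5 against 115 CPM, a fold of 0.361 (8 and 120 UMIs). Ctla2a, a protease inhibitor gene, stood at 12.3 CPM in bulge cells of dpp40 against 27.1 in NP, a fold of 0.456 (40 and 53 UMIs), while in basal-like cells it stood at 37.6 against 5.75 CPM, a fold of 6.54 (61 and 6 UMIs). The basal-like sums of Guca2a at dpp6 and of Ctla2a in NP rested on 8 and 6 UMIs.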

How the results depend on the processing

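No paired analysis was possible because each state has a single-cell library of its own and the bulk libraries, whose labels share replicate numbers, were not used here; the library was the block in every class comparison. With 1 library left out, 1753 to 2518 genes passed against basal-like cells (838 to 1204 higher and 714 to 1331 lower), 4173 to 4999 against Krt79-high cells (1870 to 2145 higher and 2163 to 2897 lower) and 3880 to 5004 against Aspn, Nrtn and Pthlh cells (1524 to 2460 higher and 2282 to 2653 lower). Basal cells chosen without Ly6a gave 4508 (2131 higher and 2377 lower). DESeq2 called 2554, 4701 and 4886 genes. Of 1144 values of 88 named class results, 1125 kept direction and side of the threshold, 10 no longer passed, 7 newly passed and 2 reversed. Both were differences from Krt79-high cells that did not pass the test: with 1 library left out, Prlr ranged from log2 -0.10 (without dpp40, edgeR adjusted p = 0.609) to 0.20 and Fst from -0.15 (without dpc16, edgeR adjusted p = 0.388) to 0.32.

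The share of bulge cells was 7.55%, 4.12%, 12.4% and 7.69% with Cd34 and Postn summing to at least 2 UMIs, 4.93%, 2.51%, 9.72% and 5.76% with at least 5, 4.41%, 1.83%, 9.58% and 4.34% after thinning, and 2.99% in dpc16 without members high in Krt1 and Krt10. With at least 20 UMIs in place of 50, 190 genes were higher and 249 lower than NP at dpc16, 245 and 92 at dpp6, and 151 and 108 at dpp40. With at least 100 UMIs the counts were 36 and 33, 30 and 19, and 15 and 7. Of 292 values of 73 named state results, 266 moved by less than their counting interval, 25 moved by more and 1 reversed, Pyy at dpp40 without members high in Krt1 and Krt10 (log2 0.47). Depth limits the state folds most in NP, where bulge cells held 1958674 UMIs, and in basal-like cells of dpp6 with 36 cells.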
